A study of Homo sapiens with 12 samples.

Results

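Autophagy machinery and cargo receptor genes were measured in HEK293T, an established cell line derived from human embryonic kidney. The set holds 37 genes, chosen by name for their step in autophagy and taken from a count table of 41878 gene rows. All 37 were found, and all 37 were among the 18030 genes that passed the filter on low counts. Their steps are initiation (5 genes), the PI3K complex (5), membrane supply and effectors of the lipid PI3P (6), conjugation (10), cargo receptors (7), adaptors that bind ATG8 proteins (2) and fusion with the lysosome (2).

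Polyadenylated RNA was sequenced from 12 libraries in 4 groups of 3 biological replicates. Cells were transfected with 1 µg of an empty control vector or of a plasmid carrying TRPML3, the endolysosomal cation channel that MCOLN3 encodes. Each plasmid was combined with serum feeding (10% serum) or with serum starvation (0% serum for 4 h), which gave vector fed, vector starved, TRPML3 fed and TRPML3 starved cells. All groups went through transient transfection, and an untransfected group was not analysed here. The labels call the replicates biological but do not say whether they came from separate cultures, so p-values measure the spread between these samples.

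Macroautophagy encloses cytoplasm in a double membrane, the autophagosome, which fuses with the lysosome for digestion. The ULK1 kinase complex starts the process, and a PI3-kinase complex built on BECN1 then marks the membrane with PI3P. PI3P effectors, lipid transfer proteins and ATG9A vesicles supply and expand the membrane, while 2 ubiquitin-like conjugation systems attach ATG8 proteins (the LC3 and GABARAP families) to it. Cargo receptors such as SQSTM1 link cargo to ATG8 proteins and are themselves degraded with it. Serum or amino acid withdrawal acts on this machinery first through phosphorylation, and transcription through factors such as TFEB and FOXO3 follows.

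Library totals ran from 33101540 to 43700547 counts, and 3 counts, taken as the detection floor, corresponded to at most 0.0978 CPM (read counts per TMM-scaled library size). MCOLN3 was at 9.31 to 18.4 CPM in the 6 vector libraries and at 4929 to 58223 CPM in the 6 TRPML3 libraries, so the plasmid labels held in all 12. Of the HEK293 markers, VIM, KRT8, CDH2, NEFM and LIN28B were at 53.3 CPM or more in every library, KRT18 was at 30.5 to 41.7 CPM and PAX2 at 0.796 to 5.70 CPM. The 12 markers of other cell types summed to 5.26 to 27.0 CPM, HBB was at 0 in 12 of 12 libraries, and apart from COL1A1 (0.229 to 21.1 CPM) and LUM (2.14 to 4.49 CPM) the highest value was 2.08 CPM (ALB). Before any result, 2 libraries stood apart: the mean rank correlation of vector fed replicate 3 was 0.936 with the others of its group and 0.951 with vector starved replicates 1 and 2, and that of TRPML3 fed replicate 3 was 0.935 with its own group and 0.945 with TRPML3 starved replicates 1 and 2. Smaller gaps of this sign were seen in vector starved replicate 1 (0.949 against 0.950) and in TRPML3 starved replicates 1 (0.939 against 0.941) and 3 (0.930 against 0.932). The share of mitochondrial counts was 4.83% to 5.70% in the libraries numbered 3, 1.046% to 2.52% in those numbered 2 and 2.81% to 4.40% in those numbered 1. Results that rest on the libraries numbered 3 are given with and without them.

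Of the promoters at hand, 3 carry the E-box letters that TFEB-family factors are known to bind, and their sequences are shown because those factors are known to respond to nutrient withdrawal. Each line gives 30 bases around the E-box on the gene's strand, 5′ to 3′, with the letters CACGTG in capitals, from RefSeq promoters of the build GRCh38.p14. The window of ATG14 is chr14:55411834-55411863 (minus strand), that of ATG3 is chr3:112561963-112561992 (minus strand) and that of BNIP3 is chr10:131982040-131982069 (minus strand).
ATG14: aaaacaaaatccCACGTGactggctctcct
ATG3: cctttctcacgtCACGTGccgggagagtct
BNIP3: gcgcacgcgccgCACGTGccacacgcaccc
The E-box began 21, 18 and 134 bases before the RefSeq start of transcription in ATG14, ATG3 and BNIP3. The 250 bases before the start were at hand for 30 members, and 3 of these 30 (10%) held the E-box, against 7.73% of 27305 genes. The GC box GGGCGG, on either strand, was in 21 of 30 (70%) against 46.2%. Of the other motifs searched on both strands, the FOXO site GTAAACA was in 1 of 30 (3.33%) against 3.66%, and the antioxidant response element core in 2 (6.67%) against 13.2%. The CRE-like ATF4 site was in 0 of 30 (3.89% of all) and the CLEAR palindrome, a longer form of the E-box, in 0 of 30 (0.374% of all). The 27305 genes were not limited to those that passed the filter on low counts, as all members did, so the 2 sets differ in more than autophagy. These matches describe letters in a window and say nothing of binding.

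Levels were compared between genes per kb of exon, as CPM divided by the summed exon length in GENCODE release 29. The median over 12 libraries was highest for TAX1BP1, a receptor for ubiquitinated cargo, at 31.8 CPM per kb. VMP1, an endoplasmic reticulum protein needed for autophagosome formation, followed at 24.95, the ATG8-processing protease ATG4C at 22.25, the mitophagy receptor BNIP3L at 21.7 and the PI3-kinase subunit PIK3R4 at 21.1. The lowest medians were those of the lipid transfer protein ATG2A (0.248 CPM per kb), the tethering factor EPG5 (0.611), the ATG12-conjugating enzyme ATG10 (1.21) and the initiating kinase ULK2 (1.56). Within the ULK complex, the scaffold RB1CC1 was at 13.1 CPM per kb and the kinase ULK1 at 1.99. The ranges of neighbours in this order overlapped for most genes, as the plot of levels per kb shows, and a level per kb depends on which transcripts the annotation lists.

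**Figure D1:**
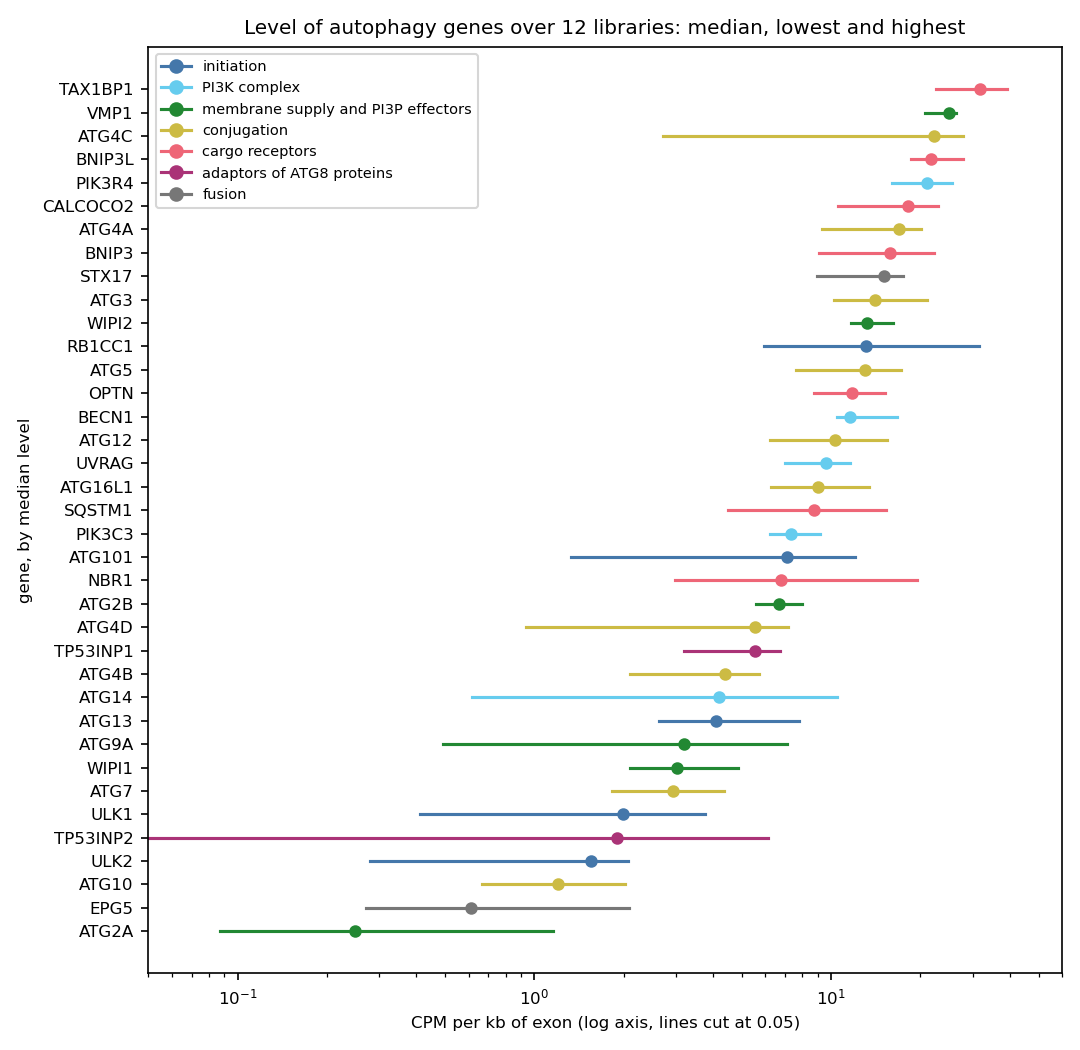
Level of the 37 genes, as CPM per kb of exon on a log axis. Each point is the median over 12 libraries, each line runs from the lowest to the highest library (cut at 0.05, which concerns TP53INP2), and colours mark the step; TAX1BP1 had the highest median (31.8) and ATG2A the lowest (0.248).

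No member passed in any of 7 contrasts at a false discovery rate of 0.05 (edgeR quasi-likelihood test, Benjamini-Hochberg adjustment over 18030 genes). Few genes of any kind did: for TRPML3 against vector 0.0111% of genes tested passed when fed, 0.00555% when starved and 0.0111% on average over serum states, and for starved against fed 0.00555% passed with the vector, 0% with TRPML3 and 0% on average over plasmids. The interaction of plasmid and serum also held 0% of genes. The smallest adjusted p of a member was 0.435, for ATG3 and the average starvation effect. At an unadjusted p under 0.05, TRPML3 against vector held 2 members when fed (background 2.21% of genes tested), 0 when starved (2.2%) and 0 on average (2.62%). Starved against fed held 2 members with the vector (4.44%), 1 with TRPML3 (5.71%) and 2 on average (9.45%), and the interaction held 1 (2.07%). As shares of 37 genes, 2 is 5.41% and 1 is 2.70%, so most of these counts lay near or below the background. The DESeq2 Wald test, the other scalings and filters and limma-trend on the authors' values also called 0 members in each contrast.

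The median log2 fold change of the 37 genes was small in every contrast. For TRPML3 against vector it was 0.09 when fed, 0.05 when starved and 0.09 on average. For starved against fed it was 0.03 with the vector, 0.05 with TRPML3 and -0.01 on average, with medians between -0.01 and 0.01 over all genes tested in these contrasts. For the average TRPML3 effect, 25 of 37 members (67.6%) were above 0, against 48.1% of all genes tested. For TRPML3 against vector when fed and when starved, 23 (62.2%) and 21 (56.8%) were above 0, against 48.9% and 49.2%. For starved against fed with the vector, with TRPML3 and on average, 19 (51.4%), 20 (54.1%) and 18 (48.6%) were above 0, against 49.4%, 51.2% and 50.7%. With library size alone as the scaling, the median of all genes moved by up to -0.10 (TRPML3 against vector, starved). The member median turned to -0.06 there, for the average TRPML3 effect it was 0.0034, and for starved against fed to -0.02 with the vector and -0.01 with TRPML3.

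**Figure D2:**
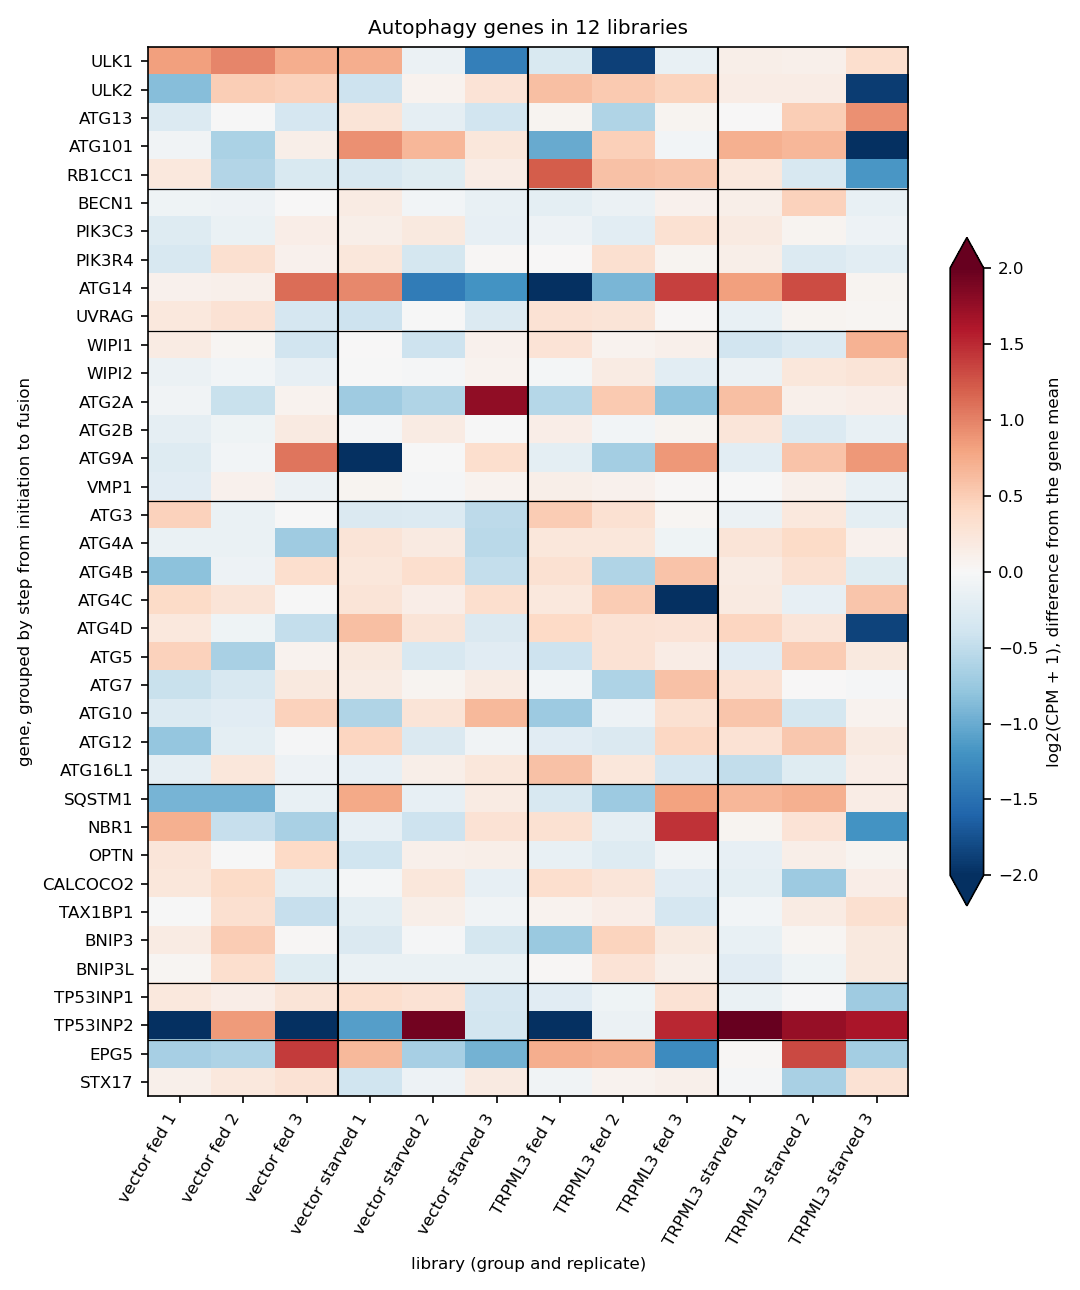
Each row is a gene, each column a library, and colour gives log2(CPM + 1) minus the gene's mean over 12 libraries (saturated beyond 2); lines separate groups and steps. Colours vary within each step and group, and single strongly coloured cells mark libraries that depart from their group, such as ATG4C in TRPML3 fed replicate 3 (8.41 CPM).

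Members differed widely in steadiness. The highest library was less than 2 times the lowest for 11 of 37 members (29.7%, against 18.8% of all genes tested) and more than 5 times for 12 (32.4%, against 39.4%). VMP1 was the steadiest, with a ratio of 1.27, followed by the PI3P effector WIPI2 (1.38), the lipid transfer protein ATG2B (1.43) and the catalytic PI3-kinase PIK3C3 (1.48). ATG14, the subunit that directs the PI3-kinase to autophagy, had a ratio of 16.9, the membrane scramblase ATG9A 14.4 and ATG2A 13.2. The median within-group SD of log2(CPM + 1) was 0.36 for members, 0.35 for all genes tested and 0.40 for genes tested with a mean of at least 10 CPM. The sets differ in level: 2.70% of members and 41.8% of all genes tested were under 10 CPM in every library. Members with their lowest value in TRPML3 starved replicate 3 included ATG101 (4.26 CPM), ATG4D (2.14), ULK2 (2.75) and NBR1 (25.1). The share of all genes tested with their lowest value there was not computed, so this is no result about the members.

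Among the initiation genes, RB1CC1 and ULK1 had the smallest p-values with TRPML3, in opposite directions. RB1CC1 (chr8:52622456-52745843, minus strand, GENCODE 29 on GRCh38), also called FIP200, is the scaffold of the ULK complex. It was at 119, 67.8 and 82.6 CPM in vector fed replicates 1, 2 and 3 and at 240, 153 and 151 CPM in TRPML3 fed. It was at 81.8, 86.5 and 113 CPM in vector starved and at 119, 81.4 and 45.3 CPM in TRPML3 starved. The TRPML3 fed libraries were above all other 9 libraries, and the starved groups overlapped. The log2 fold change with TRPML3 in fed cells was 1.01 ± 0.35 SE (unadjusted p = 0.0156, adjusted p = 1), and that of starvation in TRPML3 cells was -1.15 ± 0.35 (unadjusted p = 0.0082, adjusted p = 0.819). The interaction was -1.21 ± 0.50 (unadjusted p = 0.0334, adjusted p = 1), and no comparison passed after adjustment. Without the libraries numbered 3, the difference between TRPML3 and vector when fed was 1.084 ± 0.37 (adjusted p = 1 by the same edgeR test).

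ULK1 (chr12:131894651-131923167, plus strand) is the kinase that starts autophagosome formation. It was at 25.4, 28.5 and 23.8 CPM in vector fed and at 11.2, 3.13 and 12.5 CPM in TRPML3 fed. It was at 23.9, 12.9 and 4.84 CPM in vector starved and at 15.2, 15.1 and 18.0 CPM in TRPML3 starved. All 3 TRPML3 fed libraries were below all 3 vector fed libraries, while the vector starved libraries spread from the vector fed level to the TRPML3 fed level. The log2 fold change with TRPML3 in fed cells was -1.53 ± 0.58 SE (unadjusted p = 0.0229, adjusted p = 1). With libraries left out it ran from -1.90 ± 0.63 without those numbered 3 to -1.05 without those numbered 2. RB1CC1 and ULK1 were the only initiation genes at an unadjusted p under 0.05 in any contrast. The remaining initiation genes were ATG13, an adaptor of the complex, at 18.4 to 54.6 CPM, its partner ATG101 at 4.26 to 38.5 CPM and ULK2 at 2.75 to 20.3 CPM. ATG13 came next, with a log2 fold change of 0.67 ± 0.30 for starvation in TRPML3 cells (unadjusted p = 0.0501, adjusted p = 0.869).

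In fed cells, 6 of 37 members (16.2%) had TRPML3 libraries that did not overlap vector libraries, against 7.09% of all genes tested (3.22% higher, 3.87% lower). Higher were RB1CC1 and the proteases ATG4A and ATG4D, and lower were ULK1, the receptor OPTN and the SNARE STX17. In starved cells the only such member was ATG3 (higher; background 6.58%, of which 3.02% higher). With starvation, 4 members (10.8%) did not overlap in vector cells (ATG101 and WIPI2 higher, ATG3 and BNIP3 lower; background 9.93%, with 5.36% higher and 4.57% lower) and 4 in TRPML3 cells (ULK1 and the ATG8-binding adaptor TP53INP2 higher, ULK2 and RB1CC1 lower; background 11.2%, with 5.56% higher and 5.66% lower). No member separated all 6 starved from all 6 fed libraries (background 1.25%) or all 6 TRPML3 from all 6 vector libraries (background 0.155%).

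**Figure D3:**
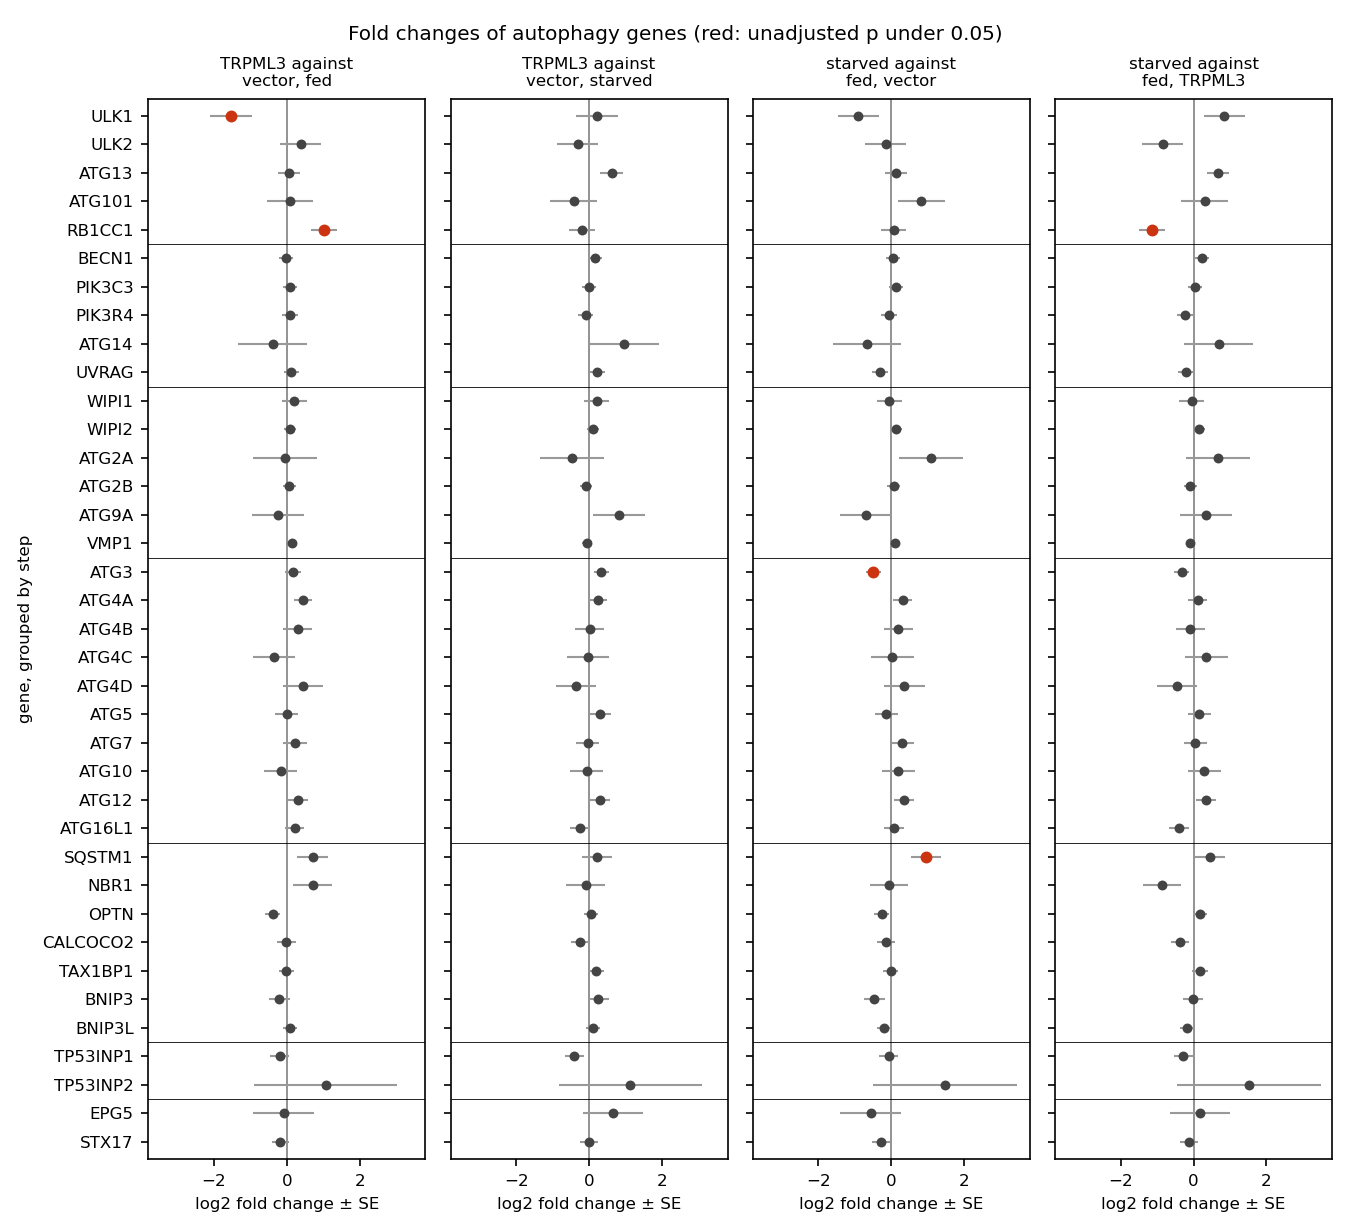
Log2 fold change with its SE (bars) for each gene in 4 contrasts, with lines between steps; red marks an unadjusted p under 0.05. The red points are RB1CC1 and ULK1 with TRPML3 in fed cells, ATG3 and SQSTM1 with starvation in vector cells and RB1CC1 with starvation in TRPML3 cells, and no point passed after adjustment.

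In the PI3K complex, the highest library was less than 2 times the lowest for every gene except ATG14. BECN1 (chr17:42810134-42833350, minus strand), its scaffold, was at 73.3, 72.4 and 78.3 CPM in vector fed and at 86.6, 74.9 and 69.8 CPM in vector starved. It was at 67.3, 71.5 and 82.5 CPM in TRPML3 fed and at 84.2, 107 and 69.6 CPM in TRPML3 starved. The groups overlapped in all 4 comparisons, and the average starvation effect was 0.14 ± 0.13 SE on the log2 scale (unadjusted p = 0.316, adjusted p = 0.813).

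UVRAG (chr11:75815167-76143195, plus strand) replaces ATG14 in a second form of the complex that acts on endosomes. It was at 69.3, 72.9 and 47.3 CPM in vector fed and at 44.4, 59.2 and 49.2 CPM in vector starved. It was at 73.4, 71.6 and 60.7 CPM in TRPML3 fed and at 54.0, 62.4 and 61.5 CPM in TRPML3 starved. Starved libraries tended to the lower end of an overlapping range, with an average starvation effect of -0.26 ± 0.15 SE (unadjusted p = 0.105, adjusted p = 0.633), which was -0.13 without the libraries numbered 1. PIK3C3 ranged from 94.5 to 140 CPM, PIK3R4 from 86.6 to 138 CPM and ATG14 from 3.12 to 52.8 CPM. ATG14, whose promoter window is printed above, reached both its lowest and its highest value within the TRPML3 fed group.

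Among genes of membrane supply and PI3P effectors, none had an unadjusted p under 0.05 in any contrast. WIPI2 (chr7:5190188-5233826, plus strand), which recruits the conjugation machinery to PI3P, was at 111, 116 and 108 CPM in vector fed and at 121, 119 and 127 CPM in vector starved. It was at 117, 135 and 105 CPM in TRPML3 fed and at 111, 141 and 145 CPM in TRPML3 starved. The vector starved libraries were all above the vector fed libraries, by a log2 fold change of 0.13 ± 0.16 SE (unadjusted p = 0.427, adjusted p = 1). ATG9A (chr2:219219380-219229717, minus strand), the transmembrane scramblase of the vesicles that seed the membrane, was at 12.8, 14.8 and 33.4 CPM in vector fed and at 2.33, 15.3 and 19.7 CPM in vector starved. It was at 13.4, 9.22 and 28.9 CPM in TRPML3 fed and at 13.2, 23.4 and 28.9 CPM in TRPML3 starved. The groups overlapped in all 4 comparisons, with the lowest value in vector starved replicate 1. For TRPML3 against vector when starved, the log2 fold change was 0.81 ± 0.71 SE (unadjusted p = 0.282, adjusted p = 1). It was 0.32 without vector starved replicate 1 and 1.30 without vector starved replicate 3.

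ATG2A (chr11:64894546-64917248, minus strand), which moves lipids into the growing membrane, rested on 21 to 403 counts per library. It was at 1.81, 1.17 and 2.09 CPM in vector fed and at 0.808, 0.936 and 9.07 CPM in vector starved. It was at 0.984, 3.23 and 0.685 CPM in TRPML3 fed and at 3.45, 2.16 and 2.23 CPM in TRPML3 starved. The average starvation effect of 0.88 ± 0.62 SE (unadjusted p = 0.185, adjusted p = 0.72) rested on vector starved replicate 3 and was -0.14 without that library. Its paralog ATG2B stayed between 82.7 and 118 CPM, VMP1 between 144 and 182 CPM and the PI3P effector WIPI1 between 7.17 and 16.5 CPM.

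Of the 10 conjugation genes, ATG3 was the only one at an unadjusted p under 0.05. ATG3 (chr3:112532509-112562046, minus strand) is the enzyme that transfers ATG8 proteins to phosphatidylethanolamine. It was at 123, 81.8 and 89.4 CPM in vector fed and at 73.3, 74.1 and 62.4 CPM in vector starved. It was at 128, 112 and 92.2 CPM in TRPML3 fed and at 82.5, 104 and 78.4 CPM in TRPML3 starved. All vector starved libraries were below all vector fed libraries, whereas the TRPML3 groups overlapped. The average starvation effect was -0.41 ± 0.15 SE (unadjusted p = 0.0199, adjusted p = 0.435), a fold of 0.754, and in vector cells it was -0.49 ± 0.21 (unadjusted p = 0.0411, adjusted p = 1). Without the libraries numbered 3 the average was again -0.41 (± 0.17, adjusted p = 0.224), but it was -0.25 without those numbered 1 and -0.55 without those numbered 2, and the vector value was -0.29 without vector fed replicate 1.

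ATG4A (chrX:108091668-108154671, plus strand), a protease that trims ATG8 proteins, had the smallest p of the 37 for the average TRPML3 effect. It was at 41.0, 40.9 and 27.3 CPM in vector fed and at 53.9, 51.2 and 30.8 CPM in vector starved. It was at 52.9, 52.9 and 42.5 CPM in TRPML3 fed and at 53.9, 58.9 and 48.1 CPM in TRPML3 starved. The fed groups did not overlap and the starved groups did, and the average TRPML3 effect was 0.34 ± 0.18 SE (unadjusted p = 0.0866, adjusted p = 1). With the replicate number as a block it was 0.37 ± 0.13 (unadjusted p = 0.0197, adjusted p = 1). Without the block it ran from 0.24 without vector starved replicate 3 to 0.43 without the libraries numbered 1. ATG3 and ATG4A were higher in TRPML3 than in the same-numbered vector library in 6 of 6 pairs. This held for 2 of 37 members and in either direction for 4.13% of all genes tested (2.06% higher). For ATG4A the starved pair numbered 1 was nearly equal, with a log2 difference of 0.00048.

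ATG5 (chr6:106045423-106325791, minus strand), which is joined to ATG12 to form the enzyme that places ATG8 proteins, was at 94.9, 43.2 and 71.7 CPM in vector fed and at 78.0, 54.5 and 58.2 CPM in vector starved. It was at 51.0, 83.3 and 75.5 CPM in TRPML3 fed and at 58.0, 97.1 and 78.4 CPM in TRPML3 starved. All groups overlapped, and the average starvation effect was 0.01 ± 0.22 SE (unadjusted p = 0.971, adjusted p = 0.995). ATG7, the activating enzyme of both systems, was at 16.1 to 38.6 CPM, ATG12 at 55.3 to 137 CPM and ATG10 at 3.62 to 10.98 CPM. ATG16L1, which anchors the ATG12-ATG5 pair on the membrane, was at 38.0 to 81.2 CPM, and its row carries a gene identifier other than the one GENCODE 29 gives on the primary chromosome, so whether it holds all reads of the gene is unknown. The proteases ATG4B, ATG4C and ATG4D ranged from 13.9 to 37.8, from 8.41 to 86.4 and from 2.14 to 16.3 CPM, and the low end of ATG4C was TRPML3 fed replicate 3 alone.

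SQSTM1 (p62; the gene lies at chr5:179806398-179838078, plus strand), the receptor that carries ubiquitinated cargo and is consumed with it, was with ATG3 one of 2 members at an unadjusted p under 0.05 for the average starvation effect. It was at 34.5, 34.5 and 59.9 CPM in vector fed and at 114, 59.3 and 74.8 CPM in vector starved. It was at 53.1, 40.1 and 117 CPM in TRPML3 fed and at 106, 109 and 73.8 CPM in TRPML3 starved. Starved libraries were higher on average, but fed and starved libraries overlapped under both plasmids. The overlap rested on vector fed replicate 3, just above vector starved replicate 2, and on TRPML3 fed replicate 3, the highest of all 12 libraries. The average starvation effect was 0.70 ± 0.29 SE (unadjusted p = 0.0363, adjusted p = 0.488), with 0.94 ± 0.42 in vector and 0.46 ± 0.41 in TRPML3 cells, and their difference did not pass (interaction -0.48 ± 0.58, unadjusted p = 0.427, adjusted p = 1). The counts stand under an identifier other than the one GENCODE 29 lists for SQSTM1 on chromosome 5, so they may not hold all reads of the gene.

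The average starvation effect of SQSTM1 depended on which replicate number was left out. It was 0.36 ± 0.39 SE without the libraries numbered 1 and 0.53 ± 0.35 without those numbered 2 (adjusted p = 1 in both by the same edgeR test). In vector cells it was 0.50 without the libraries numbered 1, and in TRPML3 cells it ran from 0.073 without those numbered 2 to 1.21 without those numbered 3. Without the libraries numbered 3, SQSTM1 passed. The 4 remaining fed libraries were at 34.5 to 53.1 CPM and the 4 starved ones at 59.3 to 114 CPM, with no overlap. The log2 fold change was 1.28 ± 0.23 SE, a fold of 2.42, at an adjusted p of 0.0439 (edgeR, over 18052 genes), of which 4.49% passed (2.54% higher, 1.94% lower). It was the only member of 37 to pass (2.70%), so the share of members lay below the background. The adjusted p was 8.06e-05 in the DESeq2 Wald test, where 16.8% of all genes tested passed. By the edgeR test it was 0.0511 without the filter on low counts (1.86% of genes passed) and 0.07 with the replicate block (0% passed). The log2 fold change was 0.98 to 1.45 when 1 more of the 8 libraries was left out. The libraries numbered 3 were those with the highest mitochondrial shares in all 4 groups, and the 2 fed ones ranked closer to starved libraries than to their own group. MCOLN3 was at 39972 CPM in TRPML3 fed replicate 3 and at 16896 CPM in TRPML3 starved replicate 3. In replicates 1 and 2 it was at 6211 and 4929 CPM in TRPML3 fed and at 41362 and 58223 CPM in TRPML3 starved. Without number 3, plasmid level and starvation therefore cannot be told apart in the TRPML3 libraries. Leaving the libraries numbered 3 out can by itself enlarge differences between starved and fed: genes passing went from 0 to 810. Leaving out each number in turn was planned, whereas singling out number 3 followed from the data, so these values are a description and no independent support.

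**Figure D4:**
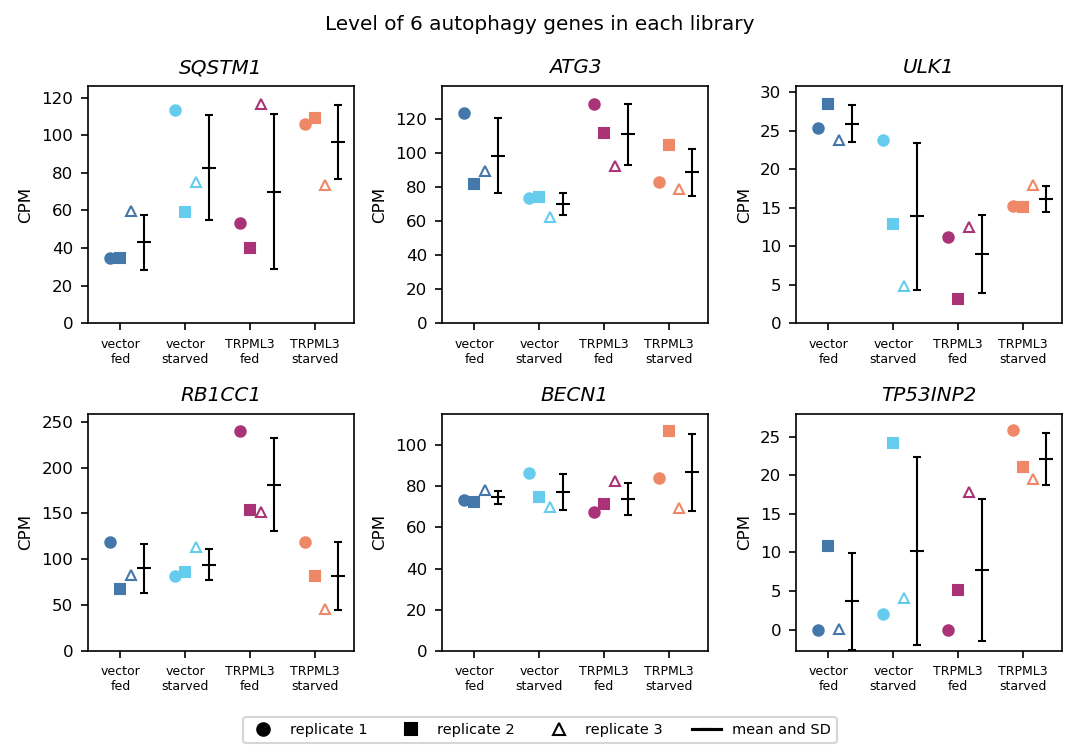
CPM of 6 genes in each library, with symbols for replicates and bars for the group mean and SD. SQSTM1 separates fed from starved libraries in replicates 1 and 2 but not 3, RB1CC1 is highest in the 3 TRPML3 fed libraries (151 to 240 CPM), and TP53INP2 is spread from 0 to 24.1 CPM outside the TRPML3 starved group.

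At an unadjusted p under 0.05, the fit without the libraries numbered 3 held 9 of 37 members for average starvation, 6 higher and 3 lower, against 23.3% of all genes tested (12.1% higher, 11.1% lower). Higher beside SQSTM1 were PIK3C3 (0.33 ± 0.10 SE on the log2 scale), BECN1 (0.32 ± 0.12), ATG101 (1.00 ± 0.36), ATG12 (0.64 ± 0.21) and ATG7 (0.51 ± 0.19). Lower were the receptors CALCOCO2 (-0.46 ± 0.15) and BNIP3L (-0.31 ± 0.12), and UVRAG (-0.38 ± 0.14). The adjusted p of these 8 lay between 0.119 and 0.203. The 4 starved and 4 fed libraries did not overlap for 8 members (ATG101, BECN1, PIK3C3, ATG7 and SQSTM1 higher, UVRAG, WIPI1 and BNIP3L lower), against 20.3% of all genes tested (10.5% higher, 9.79% lower). As shares of 37 genes, the 9 and the 8 members lay near the background, so neither count is a result about the members. This fit, too, was singled out after seeing the data.

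**Figure D5:**
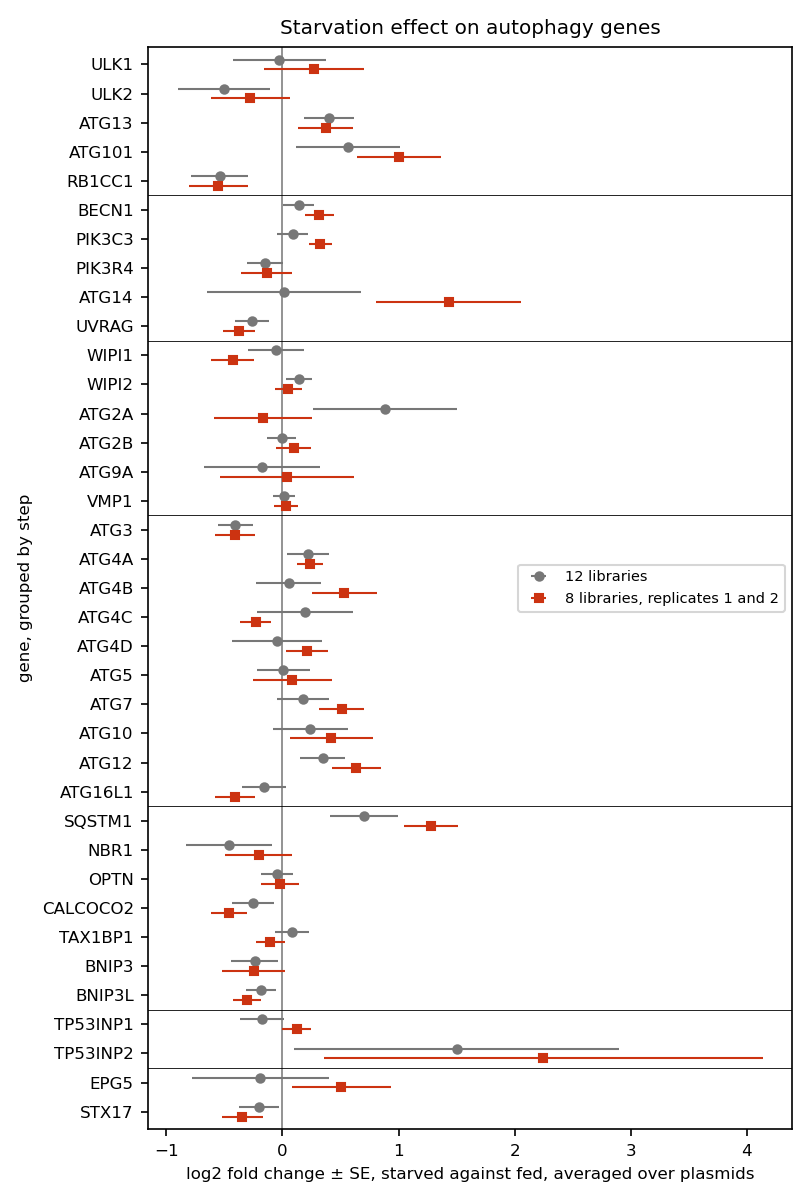
Average starvation effect (log2 fold change with SE bars) of each gene in the fit to 12 libraries (grey circles) and to the 8 libraries of replicates 1 and 2 (red squares). SQSTM1 moved from 0.70 to 1.28 and ATG2A from 0.88 to -0.17, while ATG3 was at -0.41 in both fits; fits without replicates 1 or 2, which are not plotted, gave 0.36 and 0.53 for SQSTM1 and -0.25 and -0.55 for ATG3.

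The other cargo receptors had no unadjusted p under 0.05 in the fit to 12 libraries. OPTN (chr10:13099449-13138308, plus strand), a receptor for ubiquitinated cargo and damaged mitochondria, was at 70.6, 59.3 and 78.3 CPM in vector fed and at 45.0, 63.7 and 64.7 CPM in vector starved. It was at 53.2, 49.3 and 56.6 CPM in TRPML3 fed and at 52.7, 64.4 and 61.8 CPM in TRPML3 starved. The fed groups did not overlap, with TRPML3 lower by a log2 fold change of -0.39 ± 0.20 SE (unadjusted p = 0.0769, adjusted p = 1), and the starved groups did. BNIP3 (chr10:131966455-131982013, minus strand), a mitophagy receptor known as a target of hypoxia and FOXO3, was at 91.8, 118 and 83.3 CPM in vector fed and at 66.8, 80.5 and 64.5 CPM in vector starved. It was at 48.5, 112 and 94.5 CPM in TRPML3 fed and at 74.4, 84.3 and 93.8 CPM in TRPML3 starved. Vector starved libraries were all below vector fed ones (log2 fold change -0.47 ± 0.28 SE, unadjusted p = 0.126, adjusted p = 1; -0.31 without vector fed replicate 2), and the TRPML3 groups overlapped.

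The remaining receptors spanned wide levels. TAX1BP1 was at 207 to 358 CPM, CALCOCO2 (NDP52, a receptor for invading bacteria and mitochondria) at 87.9 to 191 CPM, BNIP3L at 80.2 to 120 CPM and NBR1, a partner of SQSTM1, at 25.1 to 163 CPM. NBR1 reached its highest value in TRPML3 fed replicate 3 and its lowest in TRPML3 starved replicate 3. Pseudogene rows named after a member held few counts: the largest share, of BNIP3P1, was 1.04% of the counts of BNIP3.

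TP53INP1 and TP53INP2 are stress-linked proteins that bind ATG8 proteins. TP53INP1 (chr8:94925972-94949411, minus strand) was at 35.0, 32.99 and 36.4 CPM in vector fed and at 38.2, 37.1 and 23.7 CPM in vector starved. It was at 25.6, 28.4 and 37.04 CPM in TRPML3 fed and at 27.2, 29.7 and 18.1 CPM in TRPML3 starved. TRPML3 libraries were lower than the same-numbered vector library in 5 of 6 pairs, and the average TRPML3 effect was -0.30 ± 0.19 SE (unadjusted p = 0.146, adjusted p = 1). ATG16L1 was also lower in 5 of 6 pairs, and UVRAG, WIPI1 and TAX1BP1 were higher in 5 of 6. The share of all genes with such a split was not computed. TP53INP2 (chr20:34704290-34713439, plus strand) was the most variable member. It was at 0, 10.9 and 0.0574 CPM in vector fed and at 2.08, 24.1 and 4.14 CPM in vector starved. It was at 0, 5.11 and 17.9 CPM in TRPML3 fed and at 25.9, 21.1 and 19.5 CPM in TRPML3 starved. The zeros and the 2 counts of vector fed replicate 3 are under the floor of 3 counts, while other libraries held up to 903 counts of this gene. The TRPML3 starved libraries were all above the TRPML3 fed ones. The average starvation effect of 1.5 ± 1.40 SE did not pass (unadjusted p = 0.307, adjusted p = 0.808). It ranged from 0.65 without vector starved replicate 2 to 4.93 without vector fed replicate 2, and was 2.29 without TRPML3 fed replicate 3.

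Both fusion genes overlapped between most groups. STX17 (chr9:99906633-99970341, plus strand), the SNARE on the closed autophagosome, was at 72.8, 78.5 and 82.5 CPM in vector fed and at 51.1, 63.2 and 76.8 CPM in vector starved. It was at 64.1, 70.7 and 72.6 CPM in TRPML3 fed and at 66.5, 42.5 and 82.4 CPM in TRPML3 starved. TRPML3 fed libraries were just below vector fed ones without overlap, by a log2 fold change of -0.17 ± 0.24 SE (unadjusted p = 0.492, adjusted p = 1). EPG5 (chr18:45847609-45967339, minus strand), a tether of autophagosomes and late endosomes, was at 6.12, 6.35 and 28.5 CPM in vector fed and at 16.7, 6.15 and 4.86 CPM in vector starved. It was at 17.6, 17.3 and 3.72 CPM in TRPML3 fed and at 10.4, 27.3 and 6.05 CPM in TRPML3 starved. Values above and below 10 CPM occurred in all 4 groups, and for TRPML3 against vector when starved the log2 fold change of 0.66 ± 0.84 SE (unadjusted p = 0.449, adjusted p = 1) was -0.17 without TRPML3 starved replicate 2.

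Of 62 further pathway genes, 61 passed the filter (MAP1LC3A did not), and 0 passed after adjustment in any contrast in the same edgeR fit. At an unadjusted p under 0.05 the average starvation effect held 6 of 61, against 9.45% of all genes (4.66% higher, 4.79% lower). Higher were ZFYVE1 (1.27 ± 0.39 SE), a PI3P-binding protein of omegasomes, the fusion subunit VPS18 (0.87 ± 0.39) and the segregase VCP (0.32 ± 0.12). Lower were the transcription factor FOXO3 (-0.43 ± 0.17), the kinase TBK1 (-0.39 ± 0.17), which phosphorylates OPTN and SQSTM1, and the reticulum receptor CCPG1 (-0.38 ± 0.14). The average TRPML3 effect held 3 of 61 (background 2.62%, with 1.25% higher and 1.37% lower), the mitophagy receptors FUNDC1 (0.77 ± 0.25) and PHB2 (-0.96 ± 0.41) and the ferritin receptor NCOA4 (0.35 ± 0.13). Without the libraries numbered 3, 3 of 61 passed for average starvation in the same edgeR test (background 4.49%), all lower. They were the ATG8 protein GABARAPL1 (-1.04 ± 0.11, adjusted p = 0.0248), the ATG16L1-binding GTPase RAB33B (-0.77 ± 0.11, adjusted p = 0.0289) and TBK1 (-0.51 ± 0.10, adjusted p = 0.0491). With the replicate block in that fit, 0% of all genes passed. Singling out number 3 followed from the data, so these values are a description as well. The TRPML3 fed and starved libraries in that fit also differed in MCOLN3, as given for SQSTM1. In bulk RNA, a change in the share of cells carrying a transcript and a change in its amount per cell cannot be told apart.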

How the data were processed

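RNA-seq of polyadenylated RNA gave 12 libraries in 4 groups of 3, grouped by the sample titles. The authors deposited raw counts per gene, and a normalized signal for 23252 rows that equals the raw count divided by 1 size factor per library. Per the submitters' processing notes, FastQC, fastp, HISAT2, StringTie, DESeq2 and the build GRCh38 were used. The annotation, the use of strand and the treatment of shared reads are not given in the sources used here, so reads of overlapping antisense genes may be counted in a member. Counts were tested with edgeR 4.0.16 in R 4.3.3: TMM, filterByExpr by group, a robust quasi-likelihood fit to 12 libraries with 8 residual degrees of freedom, and 7 contrasts adjusted over all genes tested. SE is the log2 fold change divided by the root of its F. CPM uses TMM-scaled library sizes, except for the cell type markers, which use plain library totals. Spread and same-numbered differences use log2(CPM + 1).

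Members and lists were chosen with earlier results of these data known. Values in every library are given for members at an adjusted p under 0.05 or an unadjusted p under 0.01 in any contrast, for the 2 members of each step with the smallest p, and for ULK1, BECN1, ATG9A, ATG5, SQSTM1, BNIP3 and STX17. Same-numbered vector and TRPML3 libraries deviated together (r of 0.12, 0.17 and 0.36 in fed and 0.12, 0.11 and 0.32 in starved cells by replicate). The labels do not say that replicate numbers pair the samples, and these libraries were taken as paired only because of these r values. Same-numbered fed and starved libraries did not deviate together (r of -0.086 to 0.0093). The main fit has no term for this pairing, so its p-values for TRPML3 against vector ignore it. The replicate block gives each number the same term in fed and starved libraries, so no fit used the pairing within each serum state. No 2 libraries agreed within counting noise (chi-square per degree of freedom at least 109 in 66 pairs). The alternatives were DESeq2 1.42.0 size factors and Wald test, plain library sizes, totals without MCOLN3, no filter, 10 counts in every library, a replicate block, only the groups compared, limma-trend (limma 3.58.1) on the log2 of the deposited normalized signal + 1, and leaving out each library or replicate number. The scripts were tested on simulated data. Gene identifiers of 35 of 37 members matched GENCODE 29, and 30 members had a RefSeq promoter.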

Additional observations from a re-analysis of the deposited data

How the results depend on the processing

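With 12 libraries, 0 members passed an adjusted p of 0.05 in any contrast under each scaling, filter and test, and 0 to 1 with a library or replicate number left out (1: SQSTM1, average starvation, without replicate 3). The replicate block changed no call there. Members at an unadjusted p under 0.05 became 2 for starved against fed with TRPML3 (DESeq2 Wald; 10 counts in every library), 2 for the interaction (DESeq2 Wald, no filter, 10 counts, limma-trend), 4 for average starvation (limma-trend) and 1 for average TRPML3 (replicate block). Plain library sizes moved the members' median log2 fold change to 0.014 (TRPML3, fed), -0.061 (TRPML3, starved), -0.021 (starvation, vector), -0.012 (starvation, TRPML3), -0.069 (average starvation) and 0.0034 (average TRPML3). With plain library sizes the median of all genes fell too in each contrast, for the average TRPML3 effect from -0.011 to -0.097. Limma-trend moved the members' median to 0.088 (TRPML3, starved) and the replicate block to 0.12 (starvation, TRPML3). With libraries left out, the counts at an unadjusted p ranged over 1 to 3 (TRPML3, fed), 0 to 2 (TRPML3, starved), 0 to 3 (starvation, vector), 1 to 6 (starvation, TRPML3), 0 to 3 (interaction), 0 to 9 (average starvation) and 0 to 5 (average TRPML3). The medians ranged over 0.028 to 0.14, 0.039 to 0.13, -0.051 to 0.051, -0.049 to 0.097, -0.12 to 0.018, -0.071 to 0.051 and 0.043 to 0.11 in that order. Signs turned for ATG5 (TRPML3, starved: -0.0039 without replicate 2, up to 0.64 without replicate 1), EPG5 (TRPML3, starved: -0.17 without TRPML3 starved replicate 2 and -0.39 without replicate 2, up to 1.60) and ATG2A (average starvation: -0.14 without vector starved replicate 3 and -0.17 without replicate 3, up to 1.55). Of the counts at an unadjusted p, the 9 for average starvation was without replicate 3, where 23.3% of all genes tested had such a p. For the other counts under these alternatives the share of all genes is not given, so they are no result about the members. Without replicate 3, the DESeq2 Wald test called 2 members for average starvation (PIK3C3 and SQSTM1), with 16.8% of all genes tested passing, a larger share than among members. With no filter 0 members passed (1.86% of all genes), and with the replicate block 0 (0% of all genes). SQSTM1 was 1.26 with no filter, 1.26 with the block and 0.98 to 1.45 with 1 more library left out. These alternatives without replicate 3 were chosen after seeing the data. The causes were not tested. By depth, ATG2A rested on 21 to 403 counts per library.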

Other observations

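The level of MCOLN3 differed between TRPML3 libraries, and members were set beside it after their values had been seen. Ordered by MCOLN3, the TRPML3 fed libraries were replicates 2, 1 and 3 (4929, 6211 and 39972 CPM) and the TRPML3 starved libraries replicates 3, 1 and 2 (16896, 41362 and 58223 CPM). SQSTM1 had the same order in both serum states, at 40.1, 53.1 and 117 CPM when fed and 73.8, 106 and 109 CPM when starved. ATG12 did too, at 77.5, 81.2 and 127 CPM when fed and 108, 116 and 137 CPM when starved. The same order in both serum states was seen for 4 of 37 members rising with MCOLN3 (SQSTM1, ATG12, ATG4B and NBR1; 4.24% of 18026 genes) and the opposite order for 1 (ATG4C; 3.61%). These 5 of 37 stand against 7.86% of genes for either order. Over all 6 TRPML3 libraries, which mix both serum states, each of the 37 members was correlated with MCOLN3 on the log2(CPM + 1) scale, with p adjusted over 18026 genes. At an unadjusted exact permutation p under 0.05 for Pearson's r were 5 members rising with MCOLN3 (13.5%, against 5.64% of genes) and 3 falling (8.11%, against 5.61%). The rising ones were BECN1 (r = 0.83), ATG14 (0.91), ATG12, SQSTM1 and TP53INP2 (0.79), and the falling ones CALCOCO2 (-0.90), ATG16L1 (-0.88) and UVRAG (-0.84). ATG12 had a Pearson r of 0.98 (exact permutation p = 0.00278, adjusted p = 0.328), a Spearman rho of 0.94 (exact permutation p = 0.0167, adjusted p = 0.439) and an r of 0.88 without the 2 libraries farthest from the median of MCOLN3. SQSTM1 had a Pearson r of 0.98 (exact permutation p = 0.00556, adjusted p = 0.329), a Spearman rho of 0.83 (exact permutation p = 0.0583, adjusted p = 0.534) and an r of 0.91 without those 2. No member passed after adjustment. With 6 libraries the exact permutation p has a floor that adjustment over 18026 genes cannot bring past the threshold unless many genes reach it. That outcome therefore says little about the members. The permutations ran across serum states, and MCOLN3 was higher on average in TRPML3 starved than in TRPML3 fed libraries (38827 against 17037 CPM). Plasmid level and starvation thus cannot be told apart here. Each serum state alone has 3 libraries, too few for a correlation.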
